A study of Homo sapiens with 18 samples.

Results

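The genes described here are 44 genes of mitosis and the G2/M transition, taken by name from the 60675 genes that each count file lists. They were chosen for their known functions. All 44 were found by symbol and all 44 passed the filter on low counts in every comparison. They fall into 9 roles, from the cyclin-CDK switch that starts mitosis to the machinery that divides the cell.

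Transcripts were counted by RNA Seq in 18 libraries from a pair of prostate cancer cell lines, LNCaP, which depends on androgen, and C4-2, its castration-resistant derivative. In each line, 3 libraries came from cells with a scrambled siRNA (siScr) and vehicle, and 3 from siScr cells with the synthetic androgen R1881 (1 nM). Another 3 came from cells given R1881 (1 nM) together with siRNA pools against both KDM1A and KDM7A, called dual knockdown below. The vehicle is DMSO in the study's RNA Seq methods and ethanol in its culture methods for R1881. KDM1A and KDM7A are histone lysine demethylases. Per the study's methods, the siRNA pools were used at 10 nM, the treatment lasted 72 h and all cells were kept in hormone-depleted medium, so the siScr controls carried an siRNA and the vehicle cells lacked androgen. No library here had only 1 of the 2 demethylases lowered, and dual knockdown was only analysed with R1881 present. The 3 C4-2 vehicle libraries carry LNCaP in their cell line field and C4-2 in their titles, and they were grouped by title. All 3 correlated more closely across genes with the mean of the C4-2 R1881 libraries (r = 0.96 to 0.98) than with the mean of the LNCaP vehicle libraries (r = 0.93 to 0.94). The labels do not say whether the 3 libraries of a group came from separate cultures, so p-values measure the spread between libraries.

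Total counts ran from 3182604 to 20154243 per library. The smallest library by far was replicate 3 of C4-2 vehicle. The smallest count of any of the 44 genes in any library was 45. The targeted demethylases were lower in every dual knockdown library. In LNCaP, KDM1A stood at 104 to 113 CPM (counts per unit of library size, scaled by TMM factors) with siScr and R1881 and at 48.5 to 54.1 CPM with dual knockdown. In C4-2, KDM1A stood at 139.6 to 146 and 14.6 to 19.9 CPM. KDM7A stood at 55 to 65 and 27.7 to 33.5 CPM in LNCaP, and at 112 to 132 and 18.2 to 23.9 CPM in C4-2. The fall was larger in C4-2 for both (KDM1A, difference in log2FC -2.04 ± 0.12 SE, adjusted p = 2.36e-09; KDM7A, -1.56 ± 0.14, adjusted p = 6.06e-07). Of the luminal prostate markers, KRT8, a luminal keratin gene, was at 235 CPM or more in every library, and KLK3, which encodes prostate-specific antigen, at 18.6 CPM or more. Of 16 markers of immune, endothelial, stromal, basal and neuroendocrine cells, 11 or 12 stayed under 1 CPM in all 3 libraries of a group, PECAM1, KRT5 and TP63 among them, and the 16 together summed to between 26.4 and 46.1 CPM. In C4-2 this sum was 33.2 to 44.2 CPM with vehicle, 26.4 to 30.6 CPM with R1881 and 36.6 to 46.1 CPM with dual knockdown, so it was lowest in the R1881 libraries, and its part in the results was not tested. COL1A1, a collagen gene, made up most of that sum, at 27.4 to 35.9 CPM with vehicle, 16.9 to 24.2 CPM with R1881 and 26.4 to 36.3 CPM with dual knockdown. In C4-2, 6 of the 16 passed the filter, and with R1881 3 fell (PTPRC, COL1A1 and ACTA2) and 2 rose (VIM and KRT14), where 15.7% and 17.1% of all genes did, while with dual knockdown 1 rose (COL1A1), where 12.7% of all genes did. In LNCaP, also with 6 tested, 3 rose with R1881 (VIM, ACTA2 and KRT14) and 2 fell (COL3A1 and COL1A1), where 23.5% and 23.2% of all genes did; VIM was called in 3 of 9 fits with 1 library left out. Between the lines with vehicle, 2 of 7 were higher in C4-2 (COL1A1 and PTPRC, the latter by a log2FC of 4.89) and 3 lower (COL3A1, VIM and ACTA2), where 29.4% and 29.5% of all genes were. With R1881 in both lines, 1 of 7 was higher in C4-2 and 4 lower, where 28.6% and 29.7% of all genes were. With dual knockdown, 1 of 7 was higher in C4-2 and 3 lower, where 28.9% and 28.8% of all genes were. The part of these markers was not tested.

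Mitosis begins when cyclin B binds and activates CDK1, helped by CDC25 phosphatases that strip inhibitory phosphates from the kinase. Polo-like and Aurora kinases then build the spindle and correct its attachments, and the spindle checkpoint holds chromosomes until every kinetochore is attached, after which the anaphase-promoting complex (APC/C) with CDC20 destroys securin and cyclin B. Most of these genes are transcribed late in the cell cycle, under FOXM1 and the MYBL2-MuvB complex, so their mRNA is widely used as a measure of how many cells in a tumour are cycling. In bulk RNA, fewer cells in G2 and mitosis and less mRNA per such cell cannot be told apart.

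The 44 genes were detected in every library, and their order of level per kilobase was led by the same 3 genes in each group. CKS2, which encodes a small CDK-binding subunit, had the highest mean in each of the 6 groups, from 92.1 CPM per kb in LNCaP vehicle to 179 CPM per kb in C4-2 dual knockdown. CDK1, the mitotic kinase, came second (48.6 to 75.7 CPM per kb), and CCNB1, its cyclin B1 partner, next (45.2 to 75.4 CPM per kb), and these 2 were nearly level in C4-2 dual knockdown. The lowest mean per kb was that of ESPL1, which encodes separase, in 5 groups, and of CDC25C in C4-2 vehicle. Summed over the 44 genes, the 3 LNCaP groups lay close together. Their libraries ran from 2837 to 3012 CPM with vehicle, from 2901 to 3135 CPM with R1881 and from 2908 to 3006 CPM with dual knockdown, and all 3 ranges overlapped. That overlap depends on the scaling, since with CPM by total counts alone the LNCaP vehicle libraries (3092 to 3199 CPM) lay above those with R1881 (2774 to 3016 CPM) and with dual knockdown (2793 to 2935 CPM). The C4-2 groups lay higher and further apart with TMM scaling, whereas by total counts alone the C4-2 R1881 libraries (3119 to 3225 CPM) overlapped the LNCaP vehicle libraries. C4-2 vehicle libraries held 3754 to 4434 CPM of these transcripts, C4-2 R1881 libraries 3203 to 3378 CPM and C4-2 dual knockdown libraries 3843 to 4570 CPM. The C4-2 vehicle and dual knockdown libraries overlapped, and every C4-2 R1881 library lay below both, with either scaling.

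**Figure D1:**
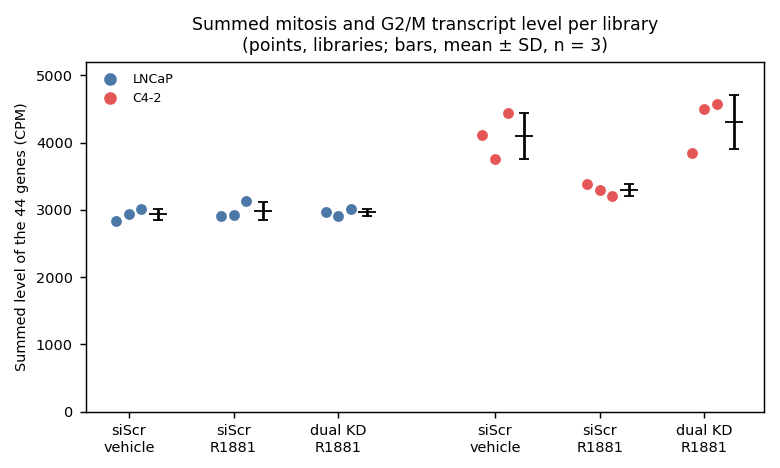
Sum of the levels of the 44 mitosis and G2/M genes (vertical axis, CPM) in each of the 18 libraries, by group (horizontal axis). Points are libraries and bars are the mean ± SD of 3 libraries. With TMM scaling the LNCaP libraries lie between 2837 and 3135 CPM in all groups, and the 3 C4-2 R1881 libraries lie below the other 6 C4-2 libraries.

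The first comparison asked how the genes respond to R1881 in each line. In C4-2, R1881 lowered many of them. With edgeR's quasi-likelihood test over all genes and an adjusted p under 0.05, 25 of the 44 were down-regulated, where 15.7% of all 16965 genes tested were down-regulated. No member was up-regulated, also at an unadjusted p under 0.05 and with DESeq2 (0 of 44 each), where 17.1% of all genes were. In 27 of the 44, all 3 R1881 libraries lay below all 3 vehicle libraries, against 22.3% of all genes. The median log2FC of the 44 was -0.30, and that of all genes tested was -0.02. The sizes were modest. The log2FC ran from -0.77 to 0.22, so none of the 44 changed 2-fold, whereas 9.07% of all genes were called with a change of at least 2-fold in either direction. Of the 25 calls, 15 held in every fit that left out 1 of the 9 libraries, and the number fell to 16 without replicate 1 or replicate 3 of siScr R1881.

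In C4-2 the deepest fall was in FOXM1, the forkhead transcription factor that drives G2/M genes (chr12:2857681-2877155 on GRCh38). Its 3 vehicle libraries held 147, 139 and 135 CPM and its 3 R1881 libraries 76.7, 88.6 and 83.2 CPM. The groups stood well apart, and the change was log2FC -0.77 ± 0.09, adjusted p = 1.42e-05 (± SE here and below). A share of 15.9% of the exon bases of FOXM1 lies in the neighbouring ITFG2 as well, and reads there may have been lost or split. MYBL2, the B-Myb factor that partners with MuvB, moved less (89.1, 83.2 and 100.2 CPM with vehicle, 74.8, 79.2 and 67.9 CPM with R1881, log2FC -0.29 ± 0.09, adjusted p = 0.0221).

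Among the mitotic kinases and the chromosomal passenger complex, all 4 genes fell with R1881 in C4-2. PLK1, polo-like kinase 1 (chr16:23677656-23690367), held 67.6, 59 and 57.1 CPM with vehicle and 38.3, 42.9 and 35.9 CPM with R1881. Every R1881 library was below every vehicle library, with log2FC -0.66 ± 0.09, adjusted p = 7.98e-05. AURKB, the Aurora kinase of the passenger complex, fell by 0.58 on the log2 scale (adjusted p = 0.000547) and BIRC5, survivin, its partner, by 0.47 (adjusted p = 0.00298). AURKA, the Aurora kinase of the spindle poles, changed least of the 4, from 95.8, 84.7 and 99.6 CPM to 81.8, 78 and 76.9 CPM (log2FC -0.24 ± 0.08, adjusted p = 0.0371). Its call was lost in 6 of the 9 fits that left out 1 library (adjusted p up to 0.131).

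Of the 4 genes around the APC/C and anaphase, 3 fell in C4-2. ESPL1, separase, the protease that opens the cohesin ring, stood at 59.8, 56.5 and 54.2 CPM with vehicle and 33.5, 36.5 and 33.4 CPM with R1881 (log2FC -0.73 ± 0.08, adjusted p = 1.23e-05). CDC20, the APC/C activator, stood at 123, 92 and 109 CPM and 78.3, 73.9 and 70.8 CPM (log2FC -0.54 ± 0.10, adjusted p = 0.000671). UBE2C, the ubiquitin-conjugating enzyme of the APC/C, fell by 0.51 (adjusted p = 0.00107), and 4 pseudogenes carry its name, so its count is uncertain. Separase and CDC20 libraries did not overlap between the groups. PTTG1, securin, the separase inhibitor, did not pass the test (log2FC -0.07 ± 0.10, adjusted p = 0.629), and it also has near-identical copies that could take some of its reads.

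In the cyclin-CDK switch, 2 of 7 genes fell in C4-2 and 5 did not pass the test. The phosphatase CDC25B went from 52.2, 45.8 and 51 CPM with vehicle to 31, 31.6 and 33 CPM with R1881 (log2FC -0.64 ± 0.10, adjusted p = 0.000188), and cyclin A2, CCNA2, fell by 0.36 (adjusted p = 0.045), a call lost in 6 of 9 fits that left out 1 library. CDK1 itself gave -0.03 ± 0.11 (adjusted p = 0.855) and CCNB1 -0.17 ± 0.11 (adjusted p = 0.286), and for both the libraries of the groups overlapped. Of the chromosome condensation genes, 3 of 4 fell. TOP2A, topoisomerase II alpha, went from 220.4, 210.1 and 253 CPM to 158, 158 and 149 CPM (log2FC -0.56 ± 0.12, adjusted p = 0.00293) and MKI67, the Ki-67 protein that coats mitotic chromosomes, from 300.4, 335 and 347 CPM to 209.6, 245 and 243 CPM (log2FC -0.49 ± 0.13, adjusted p = 0.00803). NCAPH, a condensin I subunit, fell by 0.37 (adjusted p = 0.00539).

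Spindle motors and assembly factors fell in 4 of 8 cases in C4-2, led by KIF2C, a microtubule-depolymerising kinesin (log2FC -0.50 ± 0.08, adjusted p = 0.000363), and TPX2, which activates AURKA on the spindle (log2FC -0.45 ± 0.10, adjusted p = 0.00323). Cytokinesis genes fell in 3 of 5 cases, and PRC1, the bundler of midzone microtubules, fell most (log2FC -0.38 ± 0.08, adjusted p = 0.0024). In the spindle checkpoint, BUB1B, the BubR1 kinase that inhibits CDC20 (log2FC -0.48 ± 0.11, adjusted p = 0.00362), and BUB1 (log2FC -0.24 ± 0.09, adjusted p = 0.0446; called in 1 of 9 fits that left out 1 library) fell, whereas TTK, the Mps1 kinase, gave 0.22 ± 0.14 (adjusted p = 0.257), the highest value of the 44. At centromere and kinetochore, CENPA, the centromeric histone H3 variant (log2FC -0.60 ± 0.15, adjusted p = 0.00588), and CENPF, a large kinetochore protein (log2FC -0.41 ± 0.13, adjusted p = 0.027), fell. The outer kinetochore genes NDC80, NUF2 and SPC25, whose products belong to the NDC80 complex, gave -0.07, -0.09 and 0.05 on the log2 scale, and none passed the test.

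In LNCaP, R1881 moved the same genes in both directions. Of the 44, 8 were up-regulated and 7 down-regulated, where 23.5% of all 17162 genes tested were up-regulated and 23.2% down-regulated, so the shares of members called were below those of all genes. In 10 genes all 3 R1881 libraries were above the vehicle libraries and in 6 below, against 27.2% and 25.8% of all genes. The median log2FC was 0.04 and that of all genes was -0.04. The genes that rose included HMMR, a spindle assembly and hyaluronan-binding protein (79.4, 84.9 and 87.8 CPM with vehicle, 98.5, 112 and 116 CPM with R1881, log2FC 0.35 ± 0.07, adjusted p = 0.000323). ANLN, anillin, the scaffold of the contractile ring, went from 70.9, 76.5 and 76.2 CPM to 91.1, 97.6 and 94.5 CPM (log2FC 0.32 ± 0.06, adjusted p = 0.000367). For HMMR and ANLN alike, the groups did not overlap. TTK (log2FC 0.34 ± 0.08, adjusted p = 0.00307), MAD2L1, the checkpoint protein MAD2 (log2FC 0.26 ± 0.07, adjusted p = 0.00887), and AURKA (log2FC 0.27 ± 0.08, adjusted p = 0.0112) also rose, as did the kinetochore subunit gene SPC25 (log2FC 0.35 ± 0.11, adjusted p = 0.0141), the condensin subunit gene NCAPG (log2FC 0.24 ± 0.08, adjusted p = 0.015) and NUSAP1, which encodes a microtubule-binding spindle protein (log2FC 0.16 ± 0.06, adjusted p = 0.0355).

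The 7 genes that fell in LNCaP with R1881 were led by FOXM1, from 77.1, 72.5 and 78.7 CPM with vehicle to 63.7, 48.3 and 60.6 CPM (log2FC -0.41 ± 0.09, adjusted p = 0.000893). ESPL1 (log2FC -0.33 ± 0.11, adjusted p = 0.0261), CDC20 (log2FC -0.27 ± 0.10, adjusted p = 0.0305) and PLK1 (log2FC -0.24 ± 0.08, adjusted p = 0.0185) followed. KIF2C, TOP2A and CDK1 fell by 0.20, 0.16 and 0.16 on the log2 scale (adjusted p = 0.0328, 0.0313 and 0.0423). FOXM1 was the only one of the 7 that stayed called in every fit that left out 1 library, and with DESeq2 or RLE factors 4 of the 7 were called. The number that fell was 1 without replicate 2 of siScr R1881, 2 without replicate 3 of siScr R1881 or of vehicle, 3 without replicate 1 of vehicle or replicate 2 of dual knockdown, and 4 without replicate 1 of siScr R1881 or replicate 1 or 3 of dual knockdown. Of the 8 that rose, 5 stayed called in every such fit (ANLN, AURKA, HMMR, MAD2L1 and TTK), and without replicate 3 of siScr R1881 only these were called. In LNCaP the share of counts from ribosomal protein genes was 5.51% to 6.26% with vehicle and 4.83% to 5.17% with R1881, and that of the 10 highest genes 6.88% to 7.17% and 7.33% to 7.54%. Their part was not tested.

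The R1881 response differed between the lines for 18 of the 44 genes, by the interaction of line and R1881 over all 18 libraries, and in all 18 the C4-2 change was the lower one. Among all 18684 genes tested, 7.95% had a lower change in C4-2 and 6.05% a higher one. No member had a higher one, also at an unadjusted p under 0.05 and with DESeq2. The median difference in log2FC over the 44 was -0.38 and over all genes it was 0.00. The largest was CDC25B (0.09 in LNCaP, -0.64 in C4-2, difference -0.74 ± 0.14, adjusted p = 0.000943). AURKA rose in LNCaP and fell in C4-2. Its LNCaP libraries went from 32.8, 33.1 and 36.1 CPM to 43.3, 37.4 and 43.4 CPM, and its difference was -0.52 ± 0.11 (adjusted p = 0.00167). ANLN (-0.53 ± 0.12, adjusted p = 0.00355), PRC1 (-0.42 ± 0.09, adjusted p = 0.00303), AURKB (-0.52 ± 0.13, adjusted p = 0.00804), UBE2C (-0.55 ± 0.14, adjusted p = 0.00853) and BUB1B (-0.48 ± 0.12, adjusted p = 0.00976) were the others that held in every fit with 1 library left out, along with CDC25B and AURKA. FOXM1 fell in both lines, and its difference of -0.36 ± 0.13 did not pass the test (adjusted p = 0.0577). The number of genes that differed fell to 8 without replicate 3 of siScr R1881 in C4-2 or in LNCaP and to 11 without LNCaP vehicle replicate 1. It rose to 24 without C4-2 dual knockdown replicate 1, to 31 with the GC trend removed and to 32 with the GC trend removed and a replicate block.

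**Figure D2:**
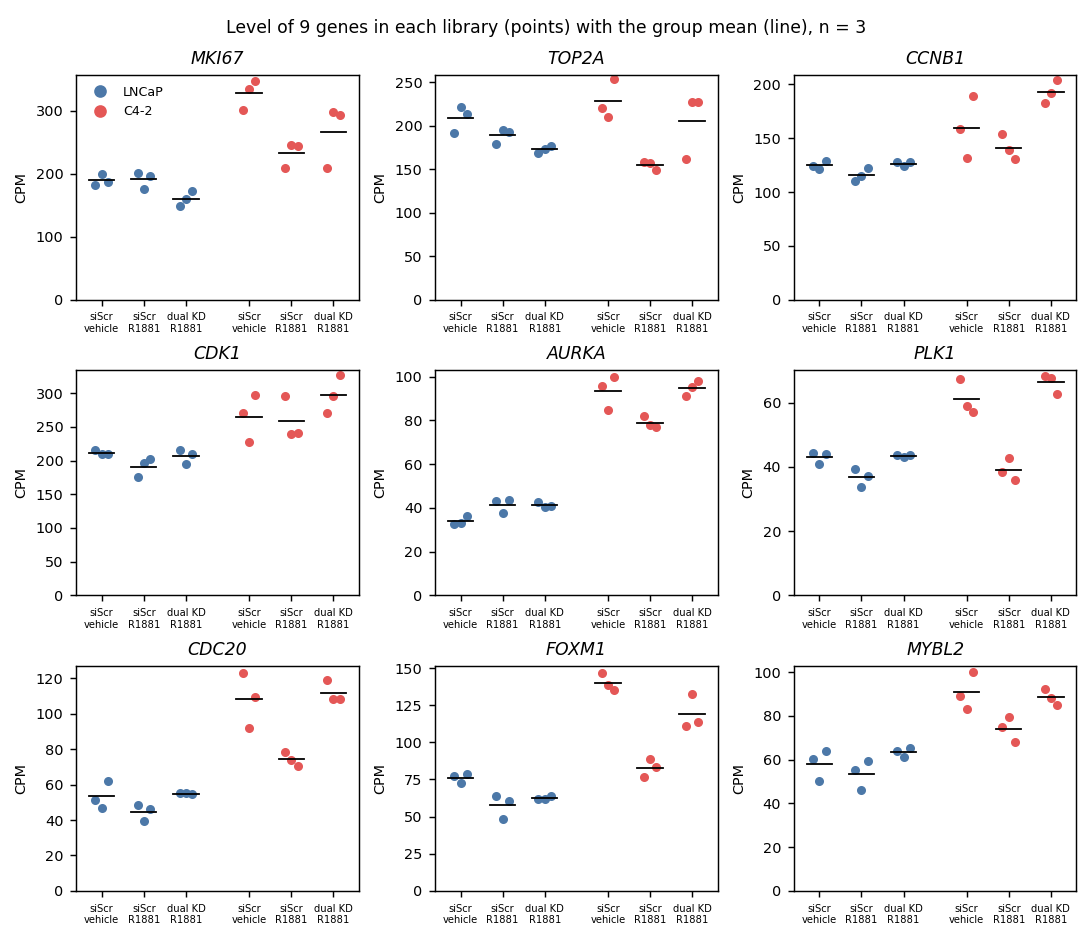
Levels (vertical axes, CPM) of 9 genes in each library by group (horizontal axes), with points for libraries and a line for the mean of 3 libraries. In C4-2, the siScr R1881 libraries of PLK1, CDC20 and FOXM1 lie below both other groups, and in LNCaP the groups lie closer together.

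The second comparison asked how dual knockdown of KDM1A and KDM7A changes the genes when R1881 is present. The siScr R1881 libraries that served as treated samples in the R1881 comparison are the controls here, so the 2 comparisons of a line are not independent of each other and their values are only set side by side. In C4-2, 30 of the 44 genes were up-regulated by dual knockdown, where 12.7% of all 16965 genes tested were up-regulated. None was down-regulated, also at an unadjusted p under 0.05 and with DESeq2, where 10.8% of all genes were. All 3 dual knockdown libraries lay above all 3 siScr libraries for 32 genes, against 21.2% of all genes. The median log2FC was 0.33, a median fold of 1.26, and that of all genes was 0.01. The range was 0.13 to 0.76. Calls depended on single libraries, and the number fell to 12 without replicate 3 of siScr R1881, to 15 without replicate 3 of dual knockdown and to between 18 and 19 without replicates 1 or 2 of siScr R1881 or replicate 2 of dual knockdown. Without replicate 1 of dual knockdown, which had the lowest level of its group for 34 of the 44 genes, it was 37. The median log2FC stayed between 0.30 and 0.44 in those fits. Of the 30 calls, 12 held in every fit that left out 1 of the 9 libraries. These were AURKB, BIRC5, BUB1B, CDC20, ECT2, FOXM1, HMMR, KIF4A, NCAPG, PLK1, PRC1 and PTTG1.

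The largest rise in C4-2 was that of PLK1, from 38.3, 42.9 and 35.9 CPM with siScr to 68.5, 67.8 and 62.9 CPM with dual knockdown. The lowest dual knockdown library was above the highest siScr library (log2FC 0.76 ± 0.09, adjusted p = 5.21e-05), and its R1881 change against vehicle in this line was -0.66 on the same scale. ERN2 and a second gene model share 12.9% of its exon bases. BIRC5 rose from 94.3, 95.2 and 90.4 CPM to 154, 142 and 145 CPM (log2FC 0.65 ± 0.10, adjusted p = 0.000419) and AURKB from 18, 21.5 and 17.9 CPM to 29.3, 28.3 and 28.3 CPM (log2FC 0.58 ± 0.10, adjusted p = 0.000866). All 4 genes of the mitotic kinase and passenger group were called, with AURKA the smallest (log2FC 0.26 ± 0.08, adjusted p = 0.0292).

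ECT2, the exchange factor that activates RhoA at the division plane (chr3:172750682-172821474), had the second largest rise, from 98.4, 96.9 and 92.7 CPM to 139, 167 and 167 CPM (log2FC 0.71 ± 0.11, adjusted p = 0.000284). Replicate 1 of dual knockdown lay below the other 2, and above all siScr libraries. The other cytokinesis genes called were PRC1 (log2FC 0.57 ± 0.08, adjusted p = 0.000174), ANLN (log2FC 0.33 ± 0.10, adjusted p = 0.0321) and KIF20A, a kinesin of the central spindle (log2FC 0.32 ± 0.09, adjusted p = 0.017). All 4 genes around the APC/C and anaphase rose. CDC20 went from 78.3, 73.9 and 70.8 CPM to 119, 108 and 109 CPM (log2FC 0.58 ± 0.10, adjusted p = 0.000623) and PTTG1 from 60.5, 55.3 and 50.9 CPM to 78.7, 84.2 and 87.3 CPM (log2FC 0.58 ± 0.10, adjusted p = 0.000699). PTTG1 had not passed the test for R1881 in this line. UBE2C (0.38) and ESPL1 (0.33) had smaller log2FC values (adjusted p = 0.0107 and 0.0104).

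FOXM1 rose in C4-2 from 76.7, 88.6 and 83.2 CPM with siScr to 111, 132 and 113 CPM with dual knockdown (log2FC 0.52 ± 0.09, adjusted p = 0.000841), and its C4-2 vehicle libraries were at 135 to 147 CPM. MYBL2 was also called (log2FC 0.25 ± 0.09, adjusted p = 0.0478), and its call was lost in 7 of 9 fits that left out 1 library. In the condensation group, NCAPG (log2FC 0.54 ± 0.11, adjusted p = 0.0021), TOP2A (log2FC 0.41 ± 0.12, adjusted p = 0.0253) and NCAPH (log2FC 0.32 ± 0.09, adjusted p = 0.0164) rose. The count of NCAPG is uncertain, since 33.1% of its exon bases lie in LCORL as well. MKI67 did not pass the test. Its siScr libraries held 209.6, 245 and 243 CPM and its dual knockdown libraries 208, 298 and 293 CPM, where replicate 1 lay just below the lowest siScr library and the other 2 above the highest (log2FC 0.19 ± 0.13, adjusted p = 0.302).

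Of the 7 cyclin-CDK genes, 3 rose in C4-2, namely CCNB1 (154, 139 and 130.3 CPM to 182, 192 and 204 CPM, log2FC 0.45 ± 0.11, adjusted p = 0.0105), CCNA2 (log2FC 0.44 ± 0.12, adjusted p = 0.0188) and CDC25B (log2FC 0.29 ± 0.10, adjusted p = 0.046). CDK1 (0.20 ± 0.11, adjusted p = 0.227), CKS2 (0.13 ± 0.11, adjusted p = 0.402), cyclin B2, CCNB2 (0.29 ± 0.11, adjusted p = 0.0727), and CDC25C (0.13 ± 0.12, adjusted p = 0.505) were not called. Spindle genes rose in 5 of 8 cases, with HMMR (log2FC 0.51 ± 0.11, adjusted p = 0.0034) and the chromokinesin gene KIF4A (log2FC 0.51 ± 0.10, adjusted p = 0.00215) the largest. Checkpoint genes rose in 2 of 4 cases, with BUB1B (log2FC 0.54 ± 0.11, adjusted p = 0.00223; 10.2% of its exon bases lie in the read-through gene BUB1B-PAK6) the largest, and centromere and kinetochore genes in 3 of 6, with CENPF the largest (log2FC 0.46 ± 0.13, adjusted p = 0.0193). The share of counts from mitochondrial genes also differed between these groups (8.71% to 8.87% with siScr and R1881, 6.39% to 6.82% with dual knockdown), as did the share taken by the 10 highest genes (8.37% to 8.49% against 6.43% to 6.75%). Their part in the rise was not tested.

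**Figure D3:**
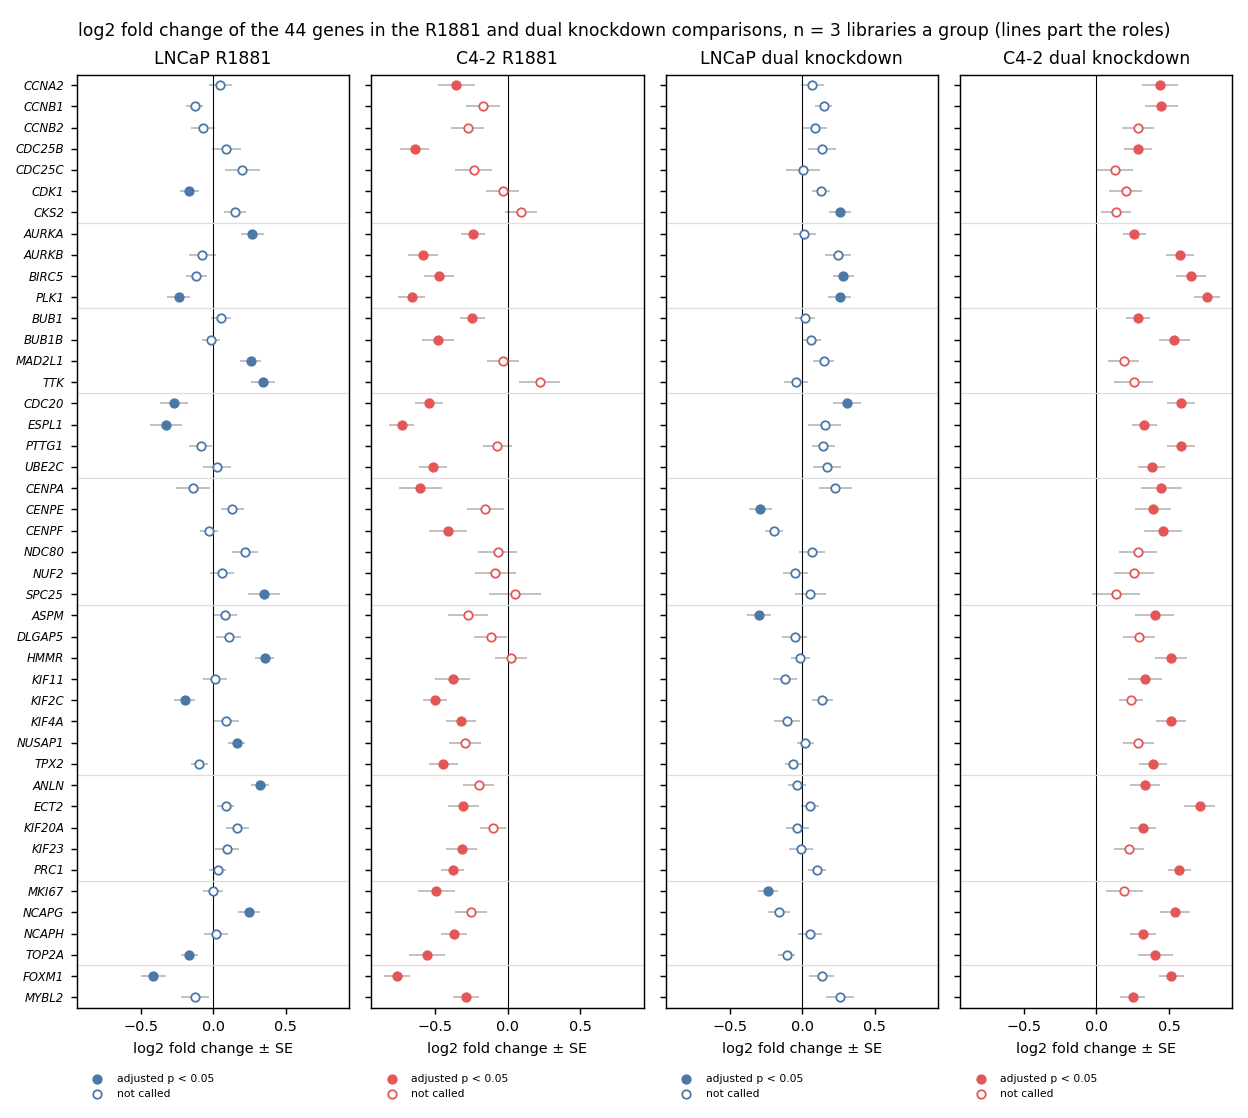
log2 fold change ± SE (horizontal axes) of the 44 genes (vertical axis, parted by role) for R1881 against vehicle and for dual knockdown against siScr, in LNCaP (blue) and C4-2 (red), 3 libraries a group. Filled points have an adjusted p under 0.05. In C4-2 the called genes all lie left of 0 for R1881 (25) and right of 0 for dual knockdown (30), and in LNCaP they lie on both sides (8 up and 7 down, then 4 up and 3 down).

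The promoters of the 6 genes with the largest C4-2 dual knockdown log2FC that have an entry in the RefSeq promoter table (build GRCh38.p14) are shown because G2/M genes are known to share 2 short elements there. One is the CHR element, TTTGAA, known to be bound by MuvB complexes, and the other is the CCAAT box, known to be bound by NF-Y. Each sequence is the 200 bases just before the RefSeq start, 5′ to 3′ on the gene's strand, with capitals marking TTTGAA or CCAAT on either strand (TTCAAA and ATTGG on the opposite one). ECT2, PTTG1 and AURKB have 2 starts each in that table, and the first listed is shown, so their matches hold for that start only. No TTCGAA, a variant of the CHR, lies in these 6 stretches.
PLK1 (chr16:23678689-23678888, plus strand): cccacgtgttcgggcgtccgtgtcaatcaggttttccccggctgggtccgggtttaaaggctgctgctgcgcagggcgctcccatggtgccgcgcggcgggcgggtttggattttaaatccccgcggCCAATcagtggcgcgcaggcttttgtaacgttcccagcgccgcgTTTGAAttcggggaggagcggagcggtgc
ECT2 (chr3:172750526-172750725, plus strand): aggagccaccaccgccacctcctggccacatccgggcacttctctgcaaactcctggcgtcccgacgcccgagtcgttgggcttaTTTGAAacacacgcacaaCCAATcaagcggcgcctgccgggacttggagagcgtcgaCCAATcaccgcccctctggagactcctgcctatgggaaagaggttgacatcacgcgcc
CDC20 (chr1:43358781-43358980, plus strand): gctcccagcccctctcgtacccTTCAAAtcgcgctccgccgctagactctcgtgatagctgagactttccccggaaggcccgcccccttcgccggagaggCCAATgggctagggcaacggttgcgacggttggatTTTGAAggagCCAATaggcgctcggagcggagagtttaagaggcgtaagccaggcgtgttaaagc
PTTG1 (chr5:160421655-160421854, plus strand): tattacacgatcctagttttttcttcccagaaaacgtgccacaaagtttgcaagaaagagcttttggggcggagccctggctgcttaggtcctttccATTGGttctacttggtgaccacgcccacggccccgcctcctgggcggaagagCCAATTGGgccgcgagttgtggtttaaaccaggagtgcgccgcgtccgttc
AURKB (chr17:8210226-8210425, minus strand): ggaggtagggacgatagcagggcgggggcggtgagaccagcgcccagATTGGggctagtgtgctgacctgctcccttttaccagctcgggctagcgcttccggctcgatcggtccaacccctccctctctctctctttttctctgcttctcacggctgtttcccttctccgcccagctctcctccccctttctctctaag
PRC1 (chr15:90994536-90994735, minus strand): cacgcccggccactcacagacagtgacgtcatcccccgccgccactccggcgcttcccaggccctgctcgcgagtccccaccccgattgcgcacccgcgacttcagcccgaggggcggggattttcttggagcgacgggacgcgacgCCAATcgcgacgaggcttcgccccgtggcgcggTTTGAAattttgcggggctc

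PLK1, ECT2 and PRC1 have 1 TTTGAA each in these 200 bases, CDC20 has 2 and PTTG1 and AURKB have 0, and all 6 have at least 1 CCAAT. In the 3 CCAAT matches of PTTG1, 2 overlap each other on opposite strands. Among the 38 members with a window of 250 bases before to 50 after the start, 27 (71.1%) held TTTGAA on either strand, against 18.2% of all 27305 genes in the table. CCAAT was in 30 (78.9%), against 39.7% of all genes, and both were in 22 (57.9%), against 7.26%. TTCGAA was in 3 (7.89%), against 1.82%. Among members with a window, TTTGAA was in 15 of the 25 called in C4-2 dual knockdown and in 12 of the 13 not called. A match of letters is a description of the sequence and not a sign of binding.

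In LNCaP, dual knockdown gave few calls. Of the 44 genes, 4 were up-regulated and 3 down-regulated, where 8.27% and 5.89% of all 17162 genes were. In 8 genes all 3 dual knockdown libraries were above the siScr libraries and in 6 below, against 16% and 18.5% of all genes. The median log2FC was 0.06 and that of all genes 0.00. The 4 that rose were CDC20 (48.3, 39.7 and 46.5 CPM with siScr, 55, 55.2 and 54.7 CPM with dual knockdown, log2FC 0.31 ± 0.10, adjusted p = 0.0425), BIRC5 (log2FC 0.28 ± 0.07, adjusted p = 0.019), CKS2 (log2FC 0.26 ± 0.08, adjusted p = 0.032) and PLK1 (log2FC 0.26 ± 0.08, adjusted p = 0.036). The 3 that fell were ASPM, a spindle pole protein gene (log2FC -0.30 ± 0.08, adjusted p = 0.0247), CENPE, which encodes a kinetochore kinesin (log2FC -0.29 ± 0.08, adjusted p = 0.0226), and MKI67 (201, 176 and 196 CPM with siScr, 149, 159 and 173 CPM with dual knockdown, log2FC -0.23 ± 0.07, adjusted p = 0.0335). None of the 7 calls held in every fit that left out 1 library, and none remained without replicate 1 or 2 of dual knockdown or without replicate 3 of siScr R1881. Without replicate 2 of siScr R1881, 1 gene was called, as lower. Without replicate 3 of dual knockdown, 2 were higher and 4 lower. With the GC trend removed, 5 were called, all as higher (BIRC5, CCNB1, CDK1, CKS2 and MAD2L1), so that PLK1 and CDC20 were not. The ribosomal protein share was 4.83% to 5.17% with siScr and 5.49% to 6.54% with dual knockdown, and its part was not tested.

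Exon length moved with the LNCaP values. ASPM, CENPE and MKI67, the 3 genes that fell, have 10938, 9444 and 12807 exon bases, and are among the 4 longest of the 44. The other, CENPF (11690 bases), gave -0.19 ± 0.06 (adjusted p = 0.0517). Over all genes tested in this comparison, the median log2FC was 0.11 for genes of 1 to 2 kb and -0.13 for genes of 9 kb and over. With each library's trend with exon length removed, an alternative chosen after seeing the data, the 7 calls were lost in LNCaP and the median log2FC was -0.01. In C4-2, the same step left 27 of 30 calls for dual knockdown and 23 of 25 for R1881. Beyond this step, the part of exon length was not tested.

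**Figure D4:**
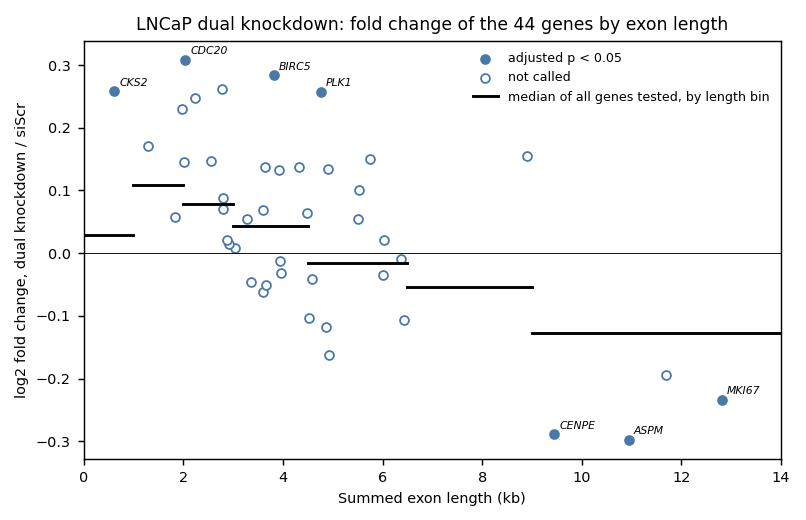
log2 fold change of the 44 genes with dual knockdown in LNCaP (vertical axis) by summed exon length (horizontal axis, kb). Filled points have an adjusted p under 0.05, and black bars are the median of all genes tested in a length bin. The bars go from 0.11 at 1 to 2 kb to -0.13 at 9 kb and over, and the 3 genes that fell are over 9 kb.

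The dual knockdown response differed between the lines for 17 of the 44 genes, all with the higher change in C4-2, where 6.97% of all 18684 genes had a higher and 3.88% a lower change in C4-2. No member had a lower one, also at an unadjusted p under 0.05 and with DESeq2. The median difference was 0.34, and over all genes it was 0.01. The smallest p was that of ECT2 (0.05 in LNCaP and 0.71 in C4-2, difference 0.68 ± 0.12, adjusted p = 0.000727). NCAPG (-0.16 and 0.54, difference 0.72 ± 0.13, adjusted p = 0.000976) and PRC1 (0.10 and 0.57, difference 0.49 ± 0.09, adjusted p = 0.00126) followed. ASPM (0.72 ± 0.17) and CENPE (0.70 ± 0.16) fell in LNCaP and rose in C4-2. Their opposite changes stand beside the length trend of the LNCaP libraries, and with the trend removed neither was called in LNCaP. With that step 16 genes differed between the lines, 15 of them among the 17. The number was 11 without replicate 2 or 3 of C4-2 dual knockdown or replicate 3 of siScr R1881 of either line. PLK1 rose more in C4-2 (0.53 ± 0.11, adjusted p = 0.00471). For BIRC5 and CDC20 the differences did not pass the test (0.39 ± 0.13, adjusted p = 0.0533; 0.30 ± 0.15, adjusted p = 0.206). KDM1A and KDM7A were lowered further in C4-2 than in LNCaP, and a difference in response cannot be told apart from that difference in depletion.

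**Figure D5:**
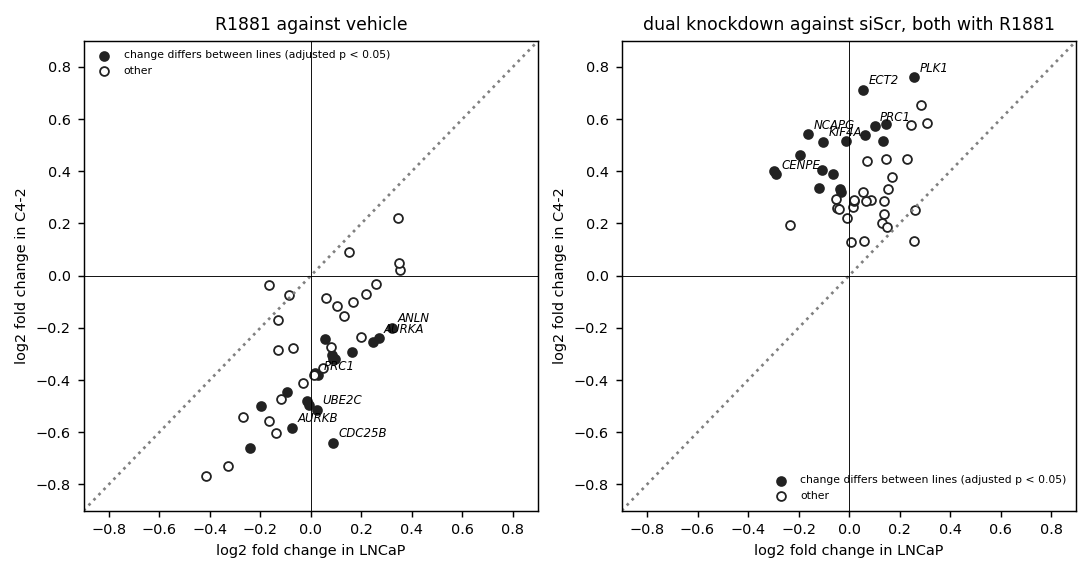
log2 fold change of the 44 genes in C4-2 (vertical axes) against that in LNCaP (horizontal axes), for R1881 on the left and dual knockdown on the right, with a dotted line where the 2 are equal. Filled points differ between the lines at an adjusted p under 0.05 (18 genes for R1881, all below the line, and 17 for dual knockdown, all above it), and the 6 genes with the smallest p are named.

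The third comparison set the lines side by side at each treatment. It used the same fit of all 18 libraries as the interaction tests. For each gene, a change in the line difference between treatments is the same quantity as those interactions. It is not a separate finding. With vehicle, most of the 44 genes were higher in C4-2. Of the 44, 35 were higher and 1 lower, where 29.4% of all 18684 genes were higher and 29.5% lower, and in 36 all 3 C4-2 libraries were above all 3 LNCaP libraries, against 30% of all genes. The median log2 difference was 0.51, a fold of 1.42, and over all genes it was -0.01. AURKA differed most, from 32.8, 33.1 and 36.1 CPM in LNCaP to 95.8, 84.7 and 99.6 CPM in C4-2 (log2FC 1.45 ± 0.08, adjusted p = 7.3e-13). Its count is uncertain, since 2 pseudogenes carry its name. ESPL1 (log2FC 1.17 ± 0.10, adjusted p = 1.91e-09), BIRC5 (log2FC 1.05 ± 0.09, adjusted p = 3.64e-09) and CDC20 (log2FC 1.01 ± 0.10, adjusted p = 3.74e-08) were also over 2-fold higher, so 4 of the 44 were, where 24.2% of all genes differed at least 2-fold in either direction. FOXM1 was 1.85-fold and MKI67 1.72-fold higher in C4-2 (adjusted p = 2.36e-08 and 1.72e-06). All 8 spindle genes and all 5 cytokinesis genes were higher. NCAPG was the 1 lower gene (log2FC -0.28 ± 0.10, adjusted p = 0.017), a call lost with the GC trend removed or with a replicate block. Leaving out 1 library at a time gave 33 to 36 higher genes. The share of counts from mitochondrial genes also differed between the lines (7.10% to 9.08% in C4-2 vehicle, 6.14% to 6.60% in LNCaP vehicle), as did that from ribosomal protein genes (3.78% to 4.48% against 5.51% to 6.26%), and their part was not tested.

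With R1881 in both lines the median difference was smaller. There, 19 of the 44 were higher in C4-2 and 7 lower, where 28.6% and 29.7% of all genes were, and the median log2 difference was 0.12, or 0.24 with the GC trend removed. All 3 C4-2 libraries were above the LNCaP libraries for 22 genes and below for 6, against 31.9% and 32.9% of all genes. AURKA remained the largest difference (43.3, 37.4 and 43.4 CPM in LNCaP, 81.8, 78 and 76.9 CPM in C4-2, log2FC 0.93 ± 0.07, adjusted p = 5.63e-10). PLK1, which had been higher in C4-2 with vehicle (0.52 ± 0.08), gave 0.08 ± 0.08 with R1881 (adjusted p = 0.402), and its libraries overlapped between the lines. The 7 lower genes included NCAPG (log2FC -0.79 ± 0.09, adjusted p = 2.23e-07), NDC80 (log2FC -0.52 ± 0.12, adjusted p = 0.000765), CCNA2 (log2FC -0.43 ± 0.11, adjusted p = 0.00137), CENPE (log2FC -0.43 ± 0.11, adjusted p = 0.00188) and TOP2A (log2FC -0.29 ± 0.10, adjusted p = 0.0166). Of the 7, 4 held in every fit that left out 1 library (CCNA2, CENPE, NCAPG and NDC80), and only these were called without LNCaP siScr R1881 replicate 3. The mitochondrial share was 8.71% to 8.87% in these C4-2 libraries and 6.32% to 6.78% in those of LNCaP, the ribosomal protein share 4.02% to 4.52% against 4.83% to 5.17%, and the share of the 10 highest genes 8.37% to 8.49% against 7.33% to 7.54%. Their part was not tested.

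With dual knockdown and R1881, 34 of the 44 were higher in C4-2 and 1 lower, where 28.9% and 28.8% of all genes were, with a median log2 difference of 0.52. For 32 genes the libraries of C4-2 were all above those of LNCaP, against 31.5% of all genes. AURKA (log2 difference 1.20), BIRC5 (1.08) and CDC20 (1.03) were each over 2-fold higher (adjusted p = 8.07e-12, 1.47e-09 and 2.06e-08), where 23.1% of all genes differed at least 2-fold, and ASPM came next (1.00, adjusted p = 2.37e-07). NDC80 was the 1 lower gene (log2FC -0.28 ± 0.12, adjusted p = 0.0477), called in 6 of 18 fits with 1 library left out. The ribosomal protein share was 4.19% to 5.06% in these C4-2 libraries and 5.49% to 6.54% in those of LNCaP, and that of the 10 highest genes 6.43% to 6.75% against 7.12% to 7.41%, and their part was not tested. No batch is given by the labels, and line and the handling of each line's cultures cannot be told apart.

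Other genes of the pathway were counted the same way. Of 55 further G2/M genes, 31 fell and 2 rose with R1881 in C4-2 (median log2FC -0.32), where 15.7% of all genes fell and 17.1% rose. With dual knockdown in C4-2, 28 rose and 1 fell (median 0.31), where 12.7% and 10.8% of all genes did. In LNCaP the shares were near or below those of all genes. There, 14 rose and 6 fell with R1881 (23.5% and 23.2% of all genes), and 6 rose and 4 fell with dual knockdown (8.27% and 5.89% of all genes). PKMYT1, a kinase that inhibits CDK1, fell most with R1881 in C4-2 (log2FC -1.03 ± 0.15, adjusted p = 9.33e-05). NCAPD3, a condensin II subunit gene, rose most with R1881 in both lines (2.04 ± 0.06 in LNCaP, 1.23 ± 0.08 in C4-2) and fell with dual knockdown in both (-0.39 ± 0.05 and -0.79 ± 0.08; adjusted p = 0.00109 and 9.3e-06). WEE1, another inhibitory kinase of CDK1, rose most with dual knockdown in C4-2 (log2FC 0.91 ± 0.12, adjusted p = 8.73e-05).

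Genes of G1/S and DNA replication gave 16 of 33 lower and 1 higher with R1881 in C4-2 (15.7% and 17.1% of all genes), and 16 higher and 3 lower with dual knockdown (12.7% and 10.8%). In LNCaP, 15 of 34 were higher and 5 lower with R1881 (23.5% and 23.2% of all genes), and 7 higher and 2 lower with dual knockdown (8.27% and 5.89%). TK1, thymidine kinase 1, had the lowest log2FC with R1881 in both lines among those called (-0.41 ± 0.11 in LNCaP, -0.90 ± 0.11 in C4-2). CDK2, the S phase kinase, had the highest with dual knockdown in C4-2 (log2FC 1.33 ± 0.10, adjusted p = 1.52e-06), and CDK6, a G1 kinase, the highest with R1881 in both lines (0.94 ± 0.27 and 1.33 ± 0.18).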

How the data were processed

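RNA Seq was analysed in 18 libraries, with groups taken from the sample titles. The deposited values were raw counts of read pairs per Ensembl gene, without normalisation. The authors made them by trimming with Trim Galore, aligning to GRCh38 with STAR and counting with featureCounts 1.5.0-p1 on Ensembl 83 annotation, per the file headers without options for strand or for reads mapping to several places, so overlapping and near-identical genes could share or lose reads. Pseudogenes are named after 8 of the 44 genes (AURKA, BUB1, CCNB2, CDC20, DLGAP5, MKI67, NCAPG and UBE2C). Symbols came from GENCODE 29 and 57055 of 60675 genes matched. Total counts were 3182604 to 20154243, with a median of 18117641. Between replicates, chi-square per gene ran from 2.56 to 18.6 over 18 pairs, more than counting error, so no library was taken for a copy of another. The 44 genes, their roles and the other lists were chosen by function with earlier results of these data known.

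Counts were tested in R 4.3.3 with edgeR 4.0.16 (filterByExpr with a minimum count of 10 and a minimum total of 15, TMM factors, 2-sided quasi-likelihood F-test, Benjamini-Hochberg adjustment over all genes tested). The 9 libraries of a line were fitted in 1 model for R1881 and for dual knockdown, and all 18 for the differences between lines. A gene was called at an adjusted p under 0.05. Fold changes are log2 with SE, and levels are CPM after TMM scaling, given per kb of exon where genes are compared. Any of the 44 could be named, in each role those with the largest and smallest log2FC, 9 set genes (MKI67, TOP2A, CCNB1, CDK1, AURKA, PLK1, CDC20, FOXM1, MYBL2) and the 10 with the smallest p per comparison, and from other lists KDM1A, KDM7A and the called genes at each end. Alternatives were RLE factors, DESeq2 1.42.0 (Wald test, no independent filtering), no filter on low counts, a minimum of 10 counts in each library, only the groups compared, a replicate block, each library left out, CPM by total counts, and, added after seeing the data, removal of lowess trends (span 0.3) with GC content or exon length. The test was tested on simulated data, where 32 of 96 genes changed by a log2FC of 0.5 and 89 of 97 changed by 1.5 were recovered for C4-2 R1881, and 36 of 99 and 96 of 98 for C4-2 dual knockdown. For the differences between lines, 10 of 97 and 76 of 96 were recovered for R1881, and 14 of 95 and 69 of 95 for dual knockdown. The simulation changed only a small part of the genes, drawn from all levels, at a fixed dispersion. Its rates are therefore not those to be had for the 44 genes in these data. Motif letters were searched on both strands of the RefSeq promoter windows, which covered 38 of the 44 genes. Tables and figures were made with pandas 2.3.3, numpy 2.4.6 and matplotlib 3.10.9 under Python 3.11.15. Some luminal marker genes are not reported here.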

Additional observations from a re-analysis of the deposited data

Results flagged for a closer look

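The R1881 response of 18 genes and the dual knockdown response of 17 genes differed between C4-2 and LNCaP by the interaction test, which is why they are set out here. For R1881, the C4-2 change minus the LNCaP change was -0.74 for CDC25B, -0.55 for UBE2C, -0.53 for ANLN, -0.52 for AURKA and for AURKB, -0.51 for NCAPG, -0.50 for MKI67, -0.48 for BUB1B and -0.46 for NUSAP1 on the log2 scale. It was -0.44 for PLK1, -0.42 for KIF4A, KIF23 and PRC1, -0.40 for ECT2 and NCAPH, -0.36 for TPX2, -0.32 for KIF2C and -0.31 for BUB1. Of these, 7 held in each of the 18 fits with 1 library left out (ANLN, AURKA, AURKB, BUB1B, CDC25B, PRC1 and UBE2C).

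For dual knockdown, the C4-2 change minus the LNCaP change was 0.72 for ASPM and for NCAPG, 0.70 for CENPE, 0.68 for CENPF and for ECT2, 0.64 for KIF4A, 0.55 for HMMR and 0.53 for PLK1 and for TOP2A. It was 0.49 for BUB1B and for PRC1, 0.47 for KIF11 and for TPX2, 0.46 for PTTG1, 0.40 for FOXM1, 0.39 for ANLN and 0.38 for KIF20A. Of these, 11 held in each of the 18 fits with 1 library left out (ASPM, BUB1B, CENPE, CENPF, ECT2, HMMR, KIF4A, NCAPG, PLK1, PRC1 and TPX2). KDM1A and KDM7A were lowered further in C4-2, so the response per degree of depletion was not measured.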

How the results depend on the processing

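In C4-2, the direction of the median log2FC held in every alternative, from -0.40 to -0.23 for R1881 and from 0.30 to 0.44 for dual knockdown. Leaving out 1 library at a time gave 16 to 29 lower members for R1881 and 12 to 37 higher ones for dual knockdown in C4-2. In LNCaP it gave 5 to 11 higher and 1 to 6 lower members for R1881, and 0 to 5 higher and 0 to 4 lower for dual knockdown. The interaction gave 8 to 24 members for R1881, with 8 without replicate 3 of either line's siScr R1881, and 11 to 25 for dual knockdown. Lower members in C4-2 against LNCaP ran from 0 to 1 with vehicle, from 4 to 7 with R1881 and from 0 to 1 with dual knockdown.

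For LNCaP R1881, lower members numbered 4 with DESeq2, RLE factors or the length trend removed, and 3 with no filter or only the 2 groups compared. The GC and length corrections were chosen after seeing the data. For LNCaP dual knockdown, lower members numbered 0 with the GC trend removed, alone or with the replicate block, and higher and lower ones 0 with the length trend removed. The lower member in C4-2 was lost (0) with vehicle under the GC trend removed, alone or with the block, or the block alone, and with dual knockdown under DESeq2, RLE factors, the block, the GC trend with the block, or the length trend removed. NCAPG with vehicle changed sign to 0.022 with the GC trend removed and the block. With the GC trend removed the R1881 interaction gave 31 members (32 with the block), and the median log2 difference of the lines was 0.62 with vehicle and 0.24 with R1881. With CPM by total counts, the mean sum of the 44 genes was 3147 in LNCaP vehicle against 2931 in the main scaling, 2856 against 2963 in LNCaP dual knockdown and 3187 against 3290 in C4-2 R1881. The causes were not tested beyond the removal of these trends.

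The labels do not say whether replicate numbers pair the libraries. Same-numbered libraries of different groups correlated at -0.09 to 0.16, with 2 of 18 over 0.1. Of 18 libraries, 6 correlated best with their own number. These values cannot exclude pairing, since differences between single libraries could hide it. With replicate number as a block, 25 members fell with R1881 and 31 rose with dual knockdown in C4-2, and 8 rose and 6 fell, then 5 rose and 4 fell, in LNCaP. The interactions gave 19 for R1881 and 19 for dual knockdown. C4-2 vehicle replicate 3 held 3182604 counts, and without it 17 members fell with R1881 in C4-2, with a median of -0.23. With 3 libraries a group, an exact permutation test of 1 gene cannot give a p below 0.1.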

Other observations

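Regulators of G2/M genes or of their protein products were counted as further lists. Of 16 genes of the DREAM and MuvB complexes and of NF-Y, which act on G2/M promoters, 1 rose and 1 fell with dual knockdown in C4-2 (NFYC, an NF-Y subunit gene, 0.34 ± 0.09, adjusted p = 0.011; RBBP4, a histone-binding MuvB subunit gene, -0.41 ± 0.09, adjusted p = 0.00392), where 12.7% of all genes rose and 10.8% fell, and 2 rose and 2 fell with R1881, where 17.1% and 15.7% of all genes did. Of 17 genes of the APC/C and its regulators, 4 rose with dual knockdown in C4-2, CDC23 (0.51 ± 0.09) and CDC27 (0.53 ± 0.09) among them. With R1881, 6 rose and 2 fell. The shares of all genes are those just given.

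Of the CDK inhibitors, CDKN2A and CDKN2B differed between the lines by more than any of the 44 genes did with vehicle. With vehicle, 3 of the 7 inhibitor genes were higher in C4-2 and 3 lower, where 29.4% and 29.5% of all genes were. CDKN2A, which encodes p16 and ARF, was at 14.7, 13.1 and 15.3 CPM in LNCaP vehicle libraries and 0.983, 1.15 and 1.17 CPM in C4-2 vehicle libraries (log2FC -3.73 ± 0.24, adjusted p = 2.29e-11). CDKN2B, p15, rose with R1881 in LNCaP from 2.36, 1.9 and 2.09 to 14.2, 13.4 and 11.8 CPM (log2FC 2.64 ± 0.16, adjusted p = 3.37e-10) and stayed under 1 CPM in all 9 C4-2 libraries. With R1881, 4 of the 7 inhibitor genes rose and 2 fell in LNCaP, where 23.5% and 23.2% of all genes did. In C4-2, 1 rose with R1881 (CDKN1A, p21, 0.33 ± 0.10, adjusted p = 0.017) and 1 fell (CDKN2C, p18, -0.79 ± 0.13, adjusted p = 0.000329), where 17.1% and 15.7% of all genes did. With dual knockdown, CDKN2C gave 0.27 ± 0.13 (adjusted p = 0.156) and CDKN1A -0.11 ± 0.10 (adjusted p = 0.446) in C4-2.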
